A study of Homo sapiens with 6 samples.

Results

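The genes described here encode the SR proteins (SRSF genes), the SR-like proteins TRA2A and TRA2B, the heterogeneous nuclear ribonucleoproteins (hnRNPs) and the SRPK and CLK kinases that phosphorylate SR proteins. They were picked out of the table by their gene symbols, in a selection made with earlier results of these data known, and comprise 45 of the 23180 symbols with counts: 12 SR proteins, 2 TRA2 proteins, 24 hnRNPs and 7 kinases. A549 is an established human lung adenocarcinoma line. Wild-type A549 cells of passage 11 received either a control siRNA (siControl, 3 samples) or an siRNA against N6AMT1, the gene of KMT9α (siKMT9α, written siKMT9a in the plots, 3 samples), and total RNA was sequenced 3 days later. All siKMT9α samples carried the same siRNA sequence, so effects of that sequence and of KMT9α depletion cannot be told apart, and the cells were not otherwise treated. The total count, with 1 transcript per gene, was between 13740098 and 19832394.5 per sample.

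KMT9 is a histone lysine methyltransferase made of KMT9α and TRMT112. Levels are given as CPM, which are counts scaled by the size of each library after its adjustment with a normalization factor (TMM). N6AMT1 measured 10.2, 10.8 and 11.5 CPM in siControl and 2.87, 3.22 and 3.35 CPM in siKMT9α. It changed by -1.77 on the log2 scale, with a standard error (SE) of 0.12. TRMT112 had a log2 fold change of -0.38 (SE 0.07). The epithelial keratins KRT8 and KRT18 were abundant in siControl, at 1281 and 2041 CPM, whereas EPCAM and CDH1 were low, at 3.86 and 3.39 CPM. The 5 epithelial markers summed to 3210 to 3580 CPM in siControl and 1720 to 1820 CPM in siKMT9α, a sum carried by KRT8 and KRT18. CDH1 went the other way, to 8.62 CPM, with a log2 fold change of 1.34 (SE 0.16, adjusted p = 3.11e-07). The 5 fibroblast markers summed to 6.61 to 8.26 CPM in siControl and 3.11 to 3.43 CPM in siKMT9α, with COL1A2 at 0 in every sample. The 5 leukocyte markers summed to 3.28 to 3.77 CPM and 1.94 to 2.28 CPM, nearly all of it CD14, with CD3E at 0 in every sample. The 5 endothelial markers summed to 0.65 to 1.17 CPM and 0.113 to 0.658 CPM. The part of these marker changes in the values of the splicing factors was not tested.

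SR proteins bind exonic sequences of pre-mRNA through RNA recognition motifs and recruit the splicing machinery through a domain rich in arginine and serine, so that they mostly favour exon inclusion. hnRNPs coat nascent transcripts and often act in the opposite sense, and both groups also take part in mRNA export, stability and translation. Phosphorylation by SRPKs in the cytoplasm and by CLKs in the nucleus controls where SR proteins reside and when they act. Many genes of both groups regulate their own transcripts by splicing in a poison exon or an intron that places a premature stop codon, which sends the mRNA to nonsense-mediated decay.

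Transcripts of most SR protein and hnRNP genes were higher after KMT9α knock-down, whereas SRPK2, HNRNPH2 and HNRNPH3 were lower. Of the 45 genes, 42 had enough counts to be tested. SRPK3, the muscle-associated kinase, HNRNPCL2 and the pseudogene HNRNPKP3 stayed at or below 0.471 CPM in each sample and were not tested. With the threshold of the study, a raw p under 1e-08 with a log2 change of more than 0.26 in size, 14 of the 42 genes were called higher and 3 lower in edgeR's quasi-likelihood test. Over all 13877 genes tested, 13.5% were called higher and 10.7% lower. At an adjusted p below 0.05, 27 of the 42 were higher and 6 lower, beside 37.1% and 38.5% of all genes, so the total share of genes that passed this weaker threshold was close to that of all genes (78.6% against 75.6%) while the direction was not. HNRNPCL1 and HNRNPCL3, which share reads, are both counted among the 27. The knock-down and control samples were fully separate in 35 of the 42 genes (83.3%), as was the case for 77.0% of all genes.

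The median log2 fold change was 0.40 over the 42 genes and -0.01 over all genes tested. Scaling by library size alone moved the median of all genes to -0.12 and that of the 42 genes to 0.29. Such a change of scaling moves all genes by the same amount. Their distance of 0.41 was therefore kept by construction, which is no check of it. Under that scaling 1516 of all genes were called higher and 1862 lower, and of the 42 genes 10 higher and 3 lower. In RNA from whole cultures, a change of the number of cells that carry a transcript and a change of its amount per cell cannot be told apart. A list of 20 S-phase and mitosis genes moved with the knock-down: 18 were called higher, among them TOP2A, PLK1 and MKI67, and MCM6 was called lower. Their part in the changes of the splicing factors was not tested.

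**Figure D1:**
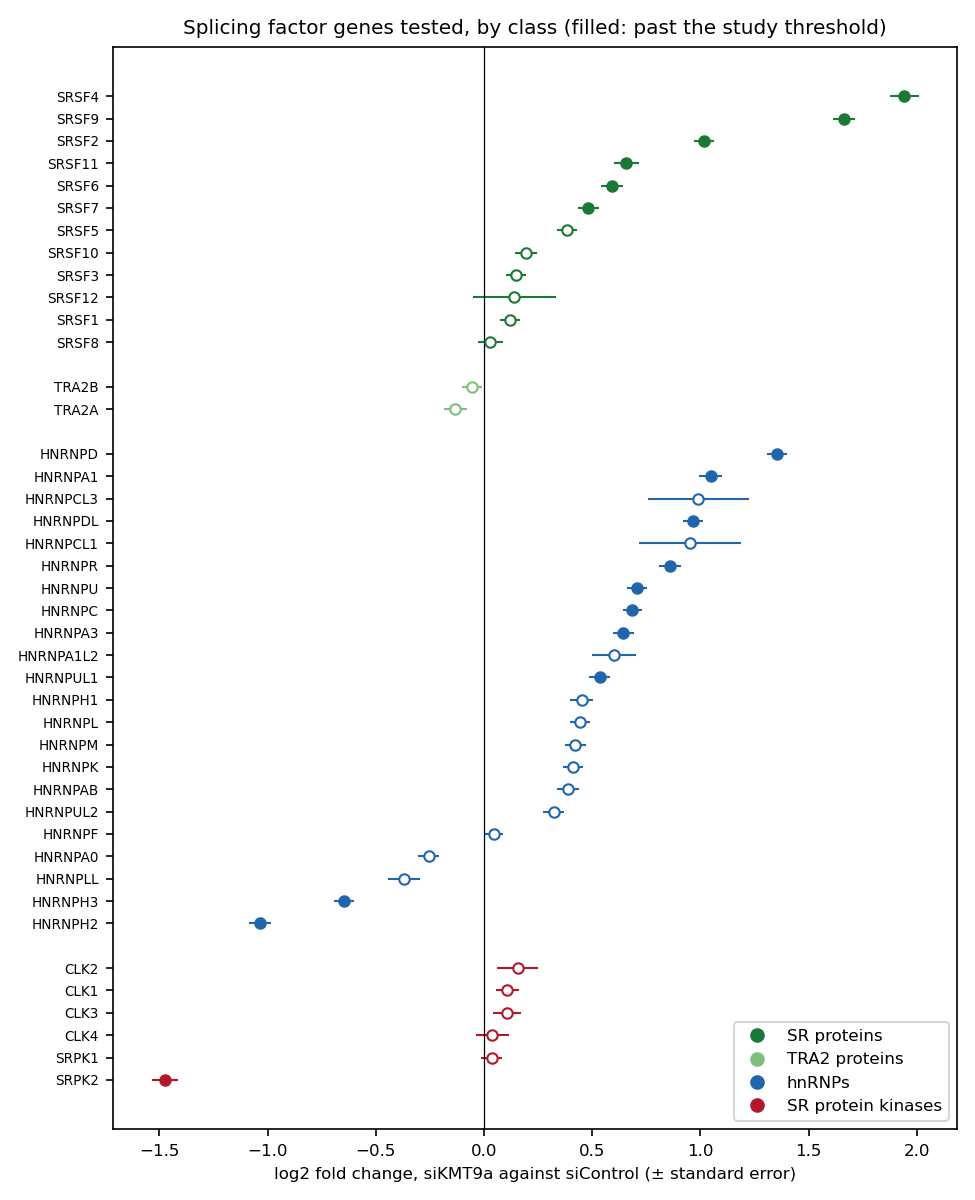
The horizontal axis gives the log2 fold change of siKMT9a against siControl with its standard error, for each of the 42 genes tested, grouped by class. Filled points passed the study's threshold. SRSF4 (1.94) and SRSF9 (1.66) lie farthest to the right, SRPK2 (-1.48) and HNRNPH2 (-1.04) farthest to the left, and CLK1 to CLK4 and SRPK1 lie near 0.

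Levels were compared between genes as CPM per kilobase of transcript. In siControl cells HNRNPK (235), HNRNPH3 (216), HNRNPC (154), HNRNPF (141) and HNRNPH1 (135 CPM per kb) had the highest levels of the 45 genes. The highest SR protein was SRSF1 (81.8), followed by SRSF3 (69.7), SRSF2 (55.7) and SRSF5 (54.0 CPM per kb), and SRSF12 was the lowest (0.686 CPM per kb). Among the kinases CLK1 was the highest (40.0 CPM per kb), followed by SRPK1 (21.2) and SRPK2 (18.5 CPM per kb). After knock-down the order among the SR proteins differed: SRSF9 stood at 151 and SRSF2 at 112 CPM per kb, both above SRSF1 at 89.0 CPM per kb. SRPK2 fell to 6.68 CPM per kb, below CLK4 (8.45) and CLK2 (9.42 CPM per kb).

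Summed over the class, SR protein transcripts amounted to 1447, 1438 and 1416 CPM in siControl and 1969, 2038 and 2019 CPM in siKMT9α, a ratio of 1.40. The 24 hnRNPs summed to 4713, 4604 and 4713 CPM in siControl and 6090, 6120 and 6037 CPM in siKMT9α, a ratio of 1.30. The kinases summed to 368.6 ± 4.72 CPM (SD, n = 3) in siControl and 342.8 ± 7.23 CPM (SD, n = 3) in siKMT9α, a ratio of 0.93. SRPK2 carried this difference, since the other 6 kinases summed to 300.4 ± 4.07 CPM in siControl and 318.1 ± 8.4 CPM in siKMT9α (SD, n = 3), and the median log2 fold change of the kinases tested was 0.07. The TRA2 proteins had a ratio of 0.946. For each of the 4 class sums the groups did not overlap on this scale. Summed as CPM per kb, the ratios were 1.58 for SR proteins, 1.26 for hnRNPs, 0.945 for kinases and 0.936 for TRA2 proteins, again without overlap. The TMM factors were 1.033 to 1.042 in siControl and 0.9635 to 0.9645 in siKMT9α. Ratios near 1, and the separation of such sums, therefore depend on the scaling. With 3 samples against 3 an exact two-sided permutation test cannot give a p below 0.1, so no single sum or level could pass 0.05 in this way.

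**Figure D2:**
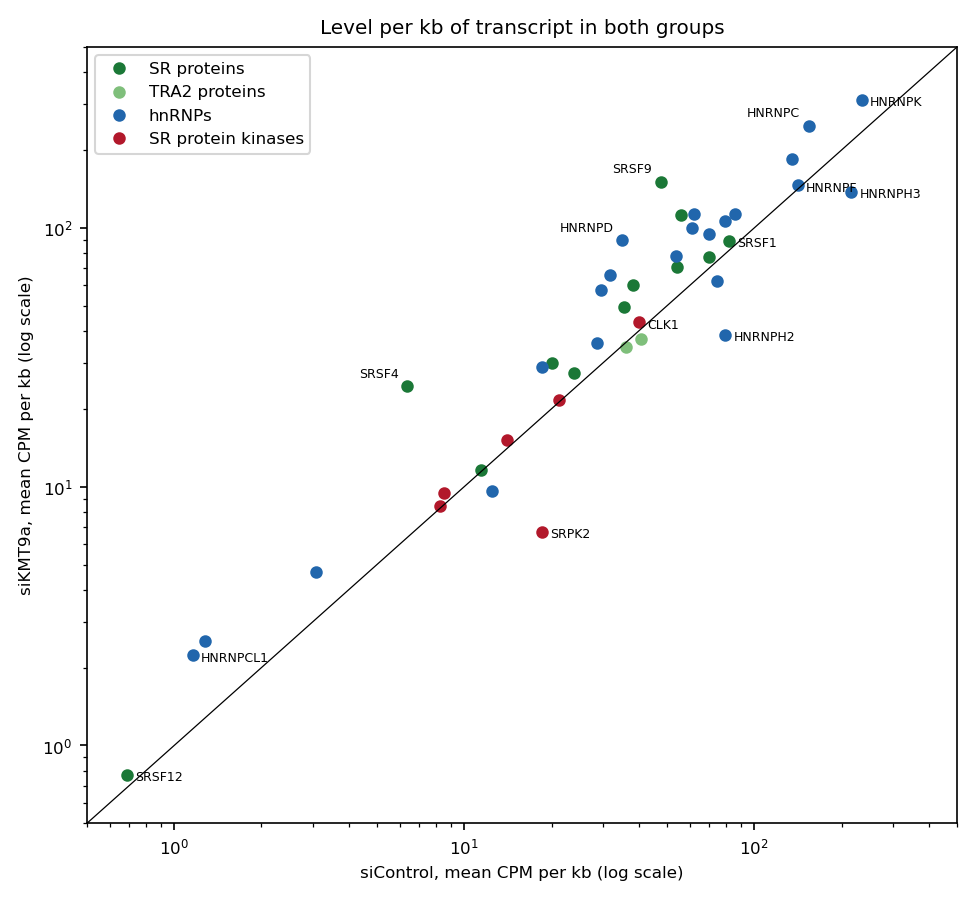
Mean CPM per kb in siControl (horizontal, log scale) and siKMT9a (vertical, log scale) for the 42 genes tested, coloured by class; the line marks equal levels. Most hnRNPs and SR proteins lie above the line, SRPK2, HNRNPH2 and HNRNPH3 lie below it, and HNRNPK is the highest in both groups.

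Of the 12 SR proteins, 6 were called higher and none lower, beside 24.2% of all genes called in either direction. An adjusted p below 0.05 was found for 10 of them (83.3%), a share near the 75.6% of all genes. These 10 include SRSF1, SRSF3 and SRSF10, with the limits given below. The class had a median log2 fold change of 0.43. SRSF4 (NM_005626, chromosome 1, 29474250 to 29508637 on hg19), one of the longest SR proteins and a splicing regulator, measured 16.4, 16.2 and 15.6 CPM in siControl and 59.4, 59.9 and 65.2 CPM in siKMT9α. It had a log2 fold change of 1.94 (SE 0.07, adjusted p = 3.15e-15) in edgeR's quasi-likelihood test. SRSF9 (NM_003769, chromosome 12, 120899471 to 120907558), a short SR protein with 2 RNA recognition motifs, measured 54.1, 55.0 and 56.1 CPM in siControl and 175.5, 181.1 and 166.5 CPM in siKMT9α. Its log2 fold change was 1.66 (SE 0.05, adjusted p = 8.28e-16). In both genes the lowest knock-down sample lay far above the highest control sample. The span of SRSF9 overlaps that of GATC on the same chromosome, and GATC had a smaller log2 fold change of 0.33 (SE 0.05).

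SRSF2 (NM_003016, chromosome 17, 74730197 to 74733493), also known as SC35 and a marker of nuclear speckles, measured 162.2, 168.3 and 163.7 CPM in siControl and 322.6, 339.3 and 336.4 CPM in siKMT9α. Its log2 fold change was 1.01 (SE 0.05, adjusted p = 2.31e-13), and MFSD11, whose span overlaps it, had 0.03 (SE 0.05). The 3 remaining calls were smaller but none had overlapping groups. SRSF11, an SR-related protein of nuclear speckles, measured 110.2, 104.9 and 101.2 CPM in siControl and 155.7, 160.4 and 182.3 CPM in siKMT9α, a log2 fold change of 0.66 (SE 0.06). SRSF6, which resembles SRSF4 in its domains, measured 84.0, 77.3 and 78.8 CPM in siControl and 115.5, 123.5 and 122.7 CPM in siKMT9α, a log2 fold change of 0.59 (SE 0.05). SRSF7, which also acts as an adaptor for mRNA export, measured 88.5, 90.0 and 84.7 CPM in siControl and 121.6, 125.2 and 120.9 CPM in siKMT9α, a log2 fold change of 0.48 (SE 0.05). These 3 genes lost the call, with a p no longer below 1e-08, when siControl replicate 2 was left out (0.66, 0.58 and 0.51) or when siKMT9α replicate 2 was left out (0.69, 0.58 and 0.47). SRSF7 also lost it without siControl replicate 3 (0.47) or siKMT9α replicate 1 (0.49). All 3 lost it with scaling by library size alone (0.55, 0.49 and 0.38).

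The other SR proteins moved less. SRSF1, the best studied SR protein and a known oncoprotein, measured 462.6, 462.5 and 459.0 CPM in siControl and 495.2, 513.2 and 496.8 CPM in siKMT9α. Its log2 fold change was 0.12 (SE 0.04, adjusted p = 0.0202), and it became -0.06 with offsets for GC content and length, so no direction is given for it. SRSF5 (0.38) and SRSF3 (0.15), the smallest SR protein, rose at an adjusted p below 0.05 without reaching the study's threshold. A change as small as that of SRSF3 depends on the scaling. With library size alone all values were lower, and 24 of the 42 genes, in place of 27, were higher at an adjusted p below 0.05. SRSF10 (0.20, adjusted p = 0.0023) also passed this weaker threshold, but only through the chosen transcript and NM_054016: its other 5 transcripts had log2 fold changes of 0.04 to 0.06 and adjusted p-values of 0.27 to 0.448 in edgeR's test. SRSF8, which arose as a retrogene of SRSF2, measured 49.0, 47.8 and 51.1 CPM in siControl and 53.7, 48.8 and 48.7 CPM in siKMT9α, with overlapping groups and a log2 fold change of 0.03 (SE 0.06). SRSF12, at 2.01 to 2.76 CPM in siControl, had a log2 fold change of 0.14 (SE 0.19).

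**Figure D3:**
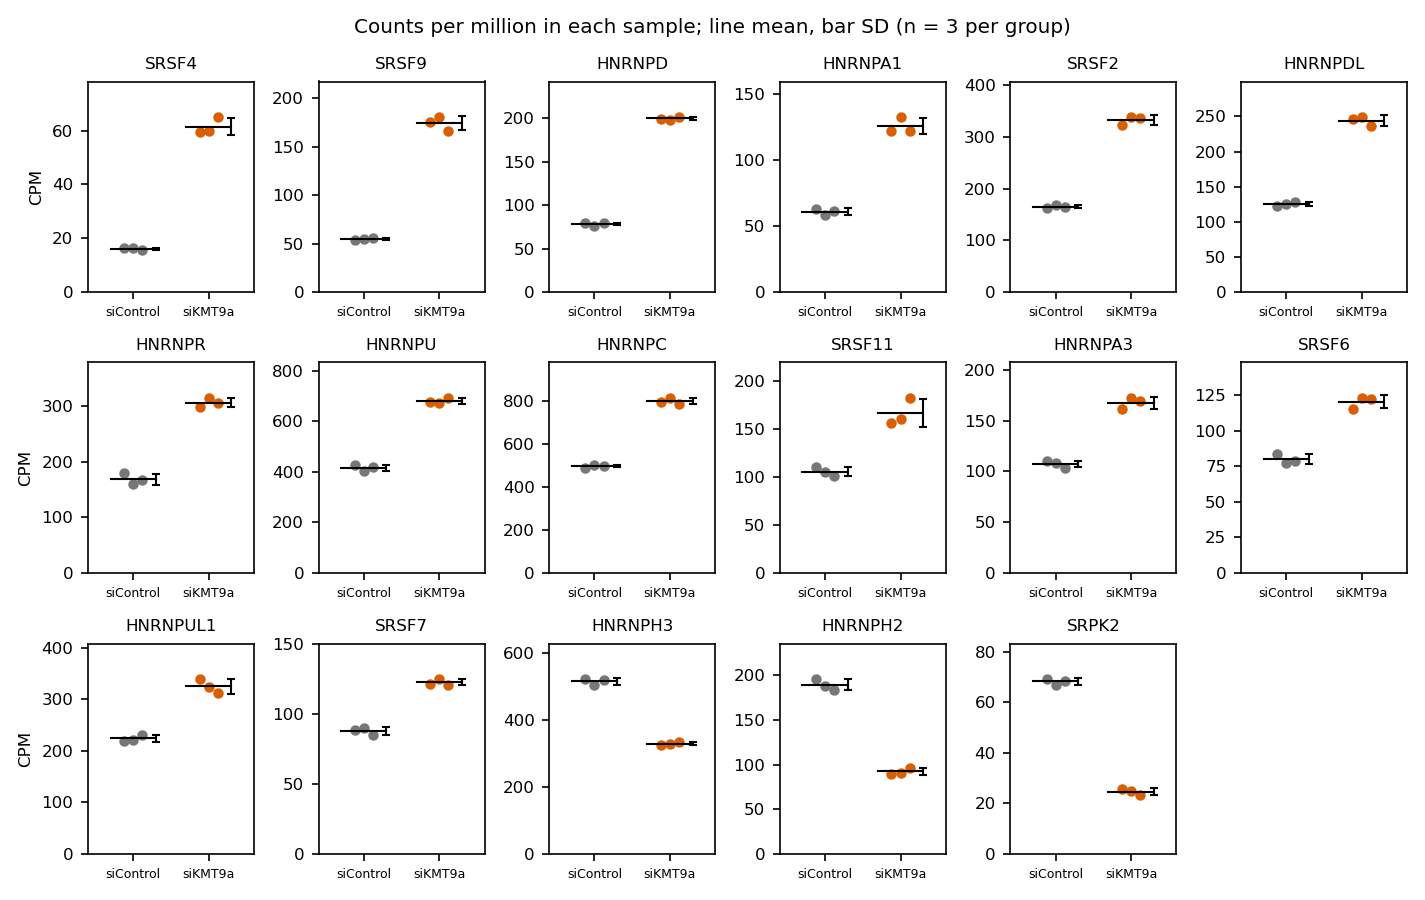
CPM (vertical axes, starting at 0) in each of the 3 siControl and 3 siKMT9a samples for the 17 genes past the study's threshold, ordered by log2 fold change; lines are group means and bars SDs. In every panel the groups are separate, from SRSF4 (means 16.0 and 61.5 CPM) to SRPK2 (68.2 and 24.6 CPM).

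Alternative exons within these genes were measured where RefSeq lists a pair of transcripts with the same ends that differ by 1 annotated exon. The reads of the exon are the count of the longer minus that of the shorter transcript, and the exon read density is these reads per base as a percentage of the reads per base of the transcript without the exon. It is not a percentage of spliced-in transcripts and may exceed 100%. In all, 876 exons of 698 genes had at least 20 reads on average, and these included 15 exons of 12 of the genes described here, 2 of which are overlapping versions of 1 exon of SRSF10. The groups were separate, with the lower density in siKMT9α, for 7 of the 15 exons and for 21.9% of all exons. The density was higher without overlap for 1 of the 15, the 166-base exon of HNRNPR, and for 5.48% of all exons. The median ratio of siKMT9α to siControl was 0.877 for the 15 exons and 0.942 for all exons. With 3 samples a group no test of a single exon was made, and exons of 1 gene share its reads.

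The poison exons of SRSF3 and SRSF6 were among the 7. Each is shown from its first base to the stop codon that it brings into frame in the transcript annotated as a target of nonsense-mediated decay; capitals mark that stop codon. The exon of SRSF3 has 456 bases, and the stretch shown lies at chr6:36567598-36567631 on the plus strand. The exon of SRSF6 has 268 bases, and the stretch shown lies at chr20:42087793-42087944 on the plus strand (both GRCh37, the build of hg19).
SRSF3 poison exon: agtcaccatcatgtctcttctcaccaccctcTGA
SRSF6 poison exon: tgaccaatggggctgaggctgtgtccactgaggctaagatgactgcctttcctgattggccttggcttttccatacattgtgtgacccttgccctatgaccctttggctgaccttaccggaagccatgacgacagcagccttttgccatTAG

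The SRSF3 poison exon held 159, 149.5 and 183.5 reads in siControl and 97, 84 and 148.5 reads in siKMT9α, not scaled for depth. Its density was 23.4%, 26.4% and 27.9% in siControl and 19.0%, 15.2% and 20% in siKMT9α, so each knock-down sample was below each control sample. The SRSF6 poison exon had densities of 102%, 97.7% and 101% in siControl and 86.2%, 85.4% and 80.1% in siKMT9α, again without overlap. Both exons with a premature stop were thus less dense in siKMT9α, relative to the reads of the transcript without the exon. The reads of the SRSF6 exon, not scaled for depth, were 107.5, 82 and 102.5 in siControl and 89, 97.5 and 127.5 in siKMT9α. The log2 fold changes of the genes were 0.15 for SRSF3 and 0.59 for SRSF6, and a link to the exons was not tested. In SRSF7 a 36-base exon had a density of 285% ± 1.15 (SD, n = 3) in siControl and 263% ± 14.2 (SD, n = 3) in siKMT9α, without overlap. Its ratio of 0.921 was near the median ratio of all exons (0.942). In SRSF2 a 104-base exon, annotated in a decay target and overlapped by MFSD11, had 50.2% ± 4.04 in siControl and 44.4% ± 8.91 in siKMT9α (SD, n = 3), and the groups overlapped. The 51- and 54-base versions of the SRSF10 exon had ratios of 0.842 and 0.877 with overlapping groups.

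The TRA2 proteins, which bind GAA-rich exonic enhancers, were not called. TRA2A measured 76.6, 73.4 and 73.5 CPM in siControl and 65.0, 69.4 and 69.4 CPM in siKMT9α, a log2 fold change of -0.13 (SE 0.05, adjusted p = 0.0265). TRA2B measured 151.3, 155.0 and 156.5 CPM in siControl and 152.2, 151.4 and 141.9 CPM in siKMT9α, a log2 fold change of -0.06 (SE 0.05, adjusted p = 0.29), with overlapping groups. An alternative exon of TRA2B of 134 bases had a density of 256% ± 41.8 in siControl and 237% ± 26.5 in siKMT9α (SD, n = 3), with overlap.

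Of the 24 hnRNPs 22 were tested, of which 8 were called higher and 2 lower (45.5%, beside 24.2% of all genes). The groups did not overlap in any of the 22, as was the case for 77.0% of all genes. HNRNPCL1 and HNRNPCL3, which share reads, are both among the 22. The median log2 fold change of the 22 hnRNPs was 0.49. HNRNPD (NM_031370, chromosome 4, 83274467 to 83295149), also known as AUF1 and a binder of AU-rich elements that affects mRNA decay, had the highest change among the hnRNPs. It measured 79.1, 76.5 and 79.2 CPM in siControl and 199.8, 198.7 and 202.1 CPM in siKMT9α, a log2 fold change of 1.35 (SE 0.05, adjusted p = 3.76e-15). HNRNPDL (NR_003249, chromosome 4, 83343717 to 83351378), its paralogue next to it on the chromosome, measured 122.0, 124.7 and 128.4 CPM in siControl and 247.0, 249.9 and 235.8 CPM in siKMT9α. Its log2 fold change was 0.97 (SE 0.05, adjusted p = 6.93e-13). Both neighbours thus rose, HNRNPD by the larger factor (2.56-fold against 1.95-fold).

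HNRNPA1 (NM_031157, chromosome 12, 54674488 to 54679030), a core hnRNP that represses exons and shuttles to the cytoplasm, measured 62.8, 57.8 and 61.1 CPM in siControl and 122.0, 132.6 and 121.5 CPM in siKMT9α. Its log2 fold change was 1.05 (SE 0.05). HNRNPA1P10, a pseudogene placed inside the same span, had 1.01, and reads of this gene and of processed copies of HNRNPA1 cannot be told apart in the deposited counts. HNRNPA3, a paralogue, measured 110.3, 108.0 and 103.6 CPM in siControl and 161.0, 172.7 and 169.4 CPM in siKMT9α, a log2 fold change of 0.64 (SE 0.05). HNRNPA2B1, whose symbol the selection rule leaves out, belongs to the same family and was also called higher, from 637.8 ± 23.0 CPM to 957.0 ± 11.7 CPM (SD, n = 3 each), with a log2 fold change of 0.59. HNRNPA0 differed from these: it was lower, with a log2 fold change of -0.26 (SE 0.05, adjusted p = 9.28e-05) that did not reach the study's threshold. HNRNPA1L2, a retrocopy of HNRNPA1, was at 7.25 CPM in siControl and 11.0 CPM in siKMT9α on average.

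HNRNPR, which binds RNA through 3 RNA recognition motifs and is known from motor neurons, measured 179.3, 159.6 and 168.1 CPM in siControl and 298.9, 316.0 and 306.3 CPM in siKMT9α, a log2 fold change of 0.86 (SE 0.05). HNRNPU, a nuclear scaffold protein that binds RNA and chromatin, measured 426.8, 403.1 and 419.9 CPM in siControl and 674.6, 673.2 and 694.0 CPM in siKMT9α, a log2 fold change of 0.71 (SE 0.05). Its relative HNRNPUL1 measured 219.6, 221.8 and 231.2 CPM in siControl and 340.6, 323.3 and 311.9 CPM in siKMT9α, a log2 fold change of 0.54 (SE 0.05). The call of HNRNPUL1 was lost without siControl replicate 2 (0.54), siKMT9α replicate 1 (0.51) or siKMT9α replicate 2 (0.54), and with scaling by library size alone (0.43). HNRNPUL2 rose less, by 0.32 (SE 0.05), and reached only the weaker threshold. HNRNPC, which packages nascent RNA and binds uridine tracts, measured 491.7, 502.5 and 500.3 CPM in siControl and 798.0, 818.0 and 787.5 CPM in siKMT9α, a log2 fold change of 0.69 (SE 0.05). HNRNPCL1 and HNRNPCL3, retrocopies of HNRNPC whose deposited positions overlap so that they share reads, stayed at or below 2.72 CPM in each sample. Their log2 fold changes were 0.95 (SE 0.24) and 0.99 (SE 0.23), and their counts in siControl were the same. Both were higher at an adjusted p below 0.05 and are counted as separate genes, although they are nearly the same measurement.

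HNRNPH2 and HNRNPH3, both of the group that binds G-rich sequences, were called lower. HNRNPH2 (NM_019597, chromosome X, 100663121 to 100669128) measured 196.2, 188.3 and 183.7 CPM in siControl and 90.0, 90.4 and 96.3 CPM in siKMT9α, a log2 fold change of -1.04 (SE 0.05, adjusted p = 4.85e-13). The readthrough gene RPL36A-HNRNPH2 shares these exons and went from 191.4 to 95.7 CPM on average. HNRNPH3 (NM_012207, chromosome 10, 70091768 to 70102953) measured 524.7, 504.7 and 519.4 CPM in siControl and 326.9, 327.5 and 335.2 CPM in siKMT9α, a log2 fold change of -0.65 (SE 0.05, adjusted p = 1.42e-10). The paralogue HNRNPH1 moved the other way, from 304.2, 285.9 and 311.8 CPM to 389.6, 407.2 and 435.8 CPM, a log2 fold change of 0.45 (SE 0.05, adjusted p = 2.04e-07). HNRNPF, the remaining paralogue, measured 391.9, 383.2 and 388.4 CPM in siControl and 407.2, 399.2 and 394.5 CPM in siKMT9α, a log2 fold change of 0.05 (SE 0.04) that changed its sign under scaling by library size alone. The 4 paralogues thus differed in direction, with HNRNPH3 the most abundant of them per kb in siControl and HNRNPH1 in siKMT9α.

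HNRNPK, a KH domain protein that binds C-rich RNA and the most abundant of the genes per kb, measured 710.7, 668.0 and 693.7 CPM in siControl and 925.2, 924.9 and 903.5 CPM in siKMT9α, a log2 fold change of 0.41 (SE 0.05). HNRNPL (0.44), a binder of CA repeats, HNRNPM (0.42) and HNRNPAB (0.39), a binder of AU-rich RNA, rose by similar amounts at an adjusted p below 0.05. HNRNPLL, a regulator of CD45 splicing in lymphocytes, was lower, at 36.0, 40.5 and 36.3 CPM in siControl and 30.7, 26.2 and 30.2 CPM in siKMT9α, a log2 fold change of -0.37 (SE 0.07).

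HNRNPAB, HNRNPD and HNRNPDL are paralogues, and each has an alternative exon near the end of its coding sequence that encodes a stretch rich in glycine and tyrosine. These exons are shown to make their likeness visible. In GRCh37 the exon of HNRNPAB has 141 bases at chr5:177637133-177637273 on the plus strand, that of HNRNPD 147 bases at chr4:83277690-83277836 on the minus strand, and that of HNRNPDL 171 bases at chr4:83347616-83347786 on the minus strand. Capitals mark the in-frame codons of glycine (GGN) and tyrosine (TAT, TAC).
HNRNPAB exon: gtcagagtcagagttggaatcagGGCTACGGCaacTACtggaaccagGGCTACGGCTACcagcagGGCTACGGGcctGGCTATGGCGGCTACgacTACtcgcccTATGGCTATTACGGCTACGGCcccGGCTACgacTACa
HNRNPD exon: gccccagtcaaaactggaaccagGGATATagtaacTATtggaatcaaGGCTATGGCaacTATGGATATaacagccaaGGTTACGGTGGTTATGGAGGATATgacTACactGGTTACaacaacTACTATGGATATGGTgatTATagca
HNRNPDL exon: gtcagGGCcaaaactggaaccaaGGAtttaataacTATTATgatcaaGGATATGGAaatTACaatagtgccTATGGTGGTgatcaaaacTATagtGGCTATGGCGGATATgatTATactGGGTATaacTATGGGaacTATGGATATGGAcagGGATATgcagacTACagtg

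Codons of glycine or tyrosine made up 58.7% of the 46 whole codons in HNRNPAB, 54.2% of the 48 in HNRNPD and 51.8% of the 56 in HNRNPDL. All 3 exons have a number of bases divisible by 3 and keep the reading frame when skipped. The HNRNPAB exon had densities of 51.8%, 53.5% and 57.1% in siControl and 25.1%, 30.0% and 30.4% in siKMT9α, a ratio of 0.526, the lowest of the 15 exons. Its reads, not scaled for depth, were 115.5, 111 and 143 in siControl and 57, 69.5 and 94.5 in siKMT9α, whereas the HNRNPAB gene had a log2 fold change of 0.39. The HNRNPD exon had densities of 98.1%, 107% and 78.5% in siControl and 65.4%, 64.7% and 59.6% in siKMT9α, a ratio of 0.669. In both genes the groups did not overlap. The HNRNPDL exon differed from them: its densities were 263%, 338% and 336% in siControl and 324%, 343% and 327% in siKMT9α, with overlap and a ratio of 1.06. The 57-base alternative exon of HNRNPD, which lies upstream in the gene, had a ratio of 0.924 with overlap.

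A further exon of HNRNPDL, of 105 bases and annotated only in targets of nonsense-mediated decay, had densities of 237%, 218% and 160% in siControl and 101%, 121% and 107% in siKMT9α, without overlap and with a ratio of 0.535. Its reads, not scaled for depth, were 131, 106 and 96.5 in siControl and 82, 102.5 and 119.5 in siKMT9α. A 26-base exon of HNRNPC had a ratio of 0.753 without overlap. The 166-base exon of HNRNPR went the other way, with densities of 9.86%, 16.3% and 12.7% in siControl and 18.7%, 20.2% and 16.8% in siKMT9α. Of the 7 exons with a lower density, those of HNRNPAB, HNRNPD and SRSF7 are wholly coding in at least 1 annotated transcript, and those of SRSF3, SRSF6 and HNRNPC and the 105-base exon of HNRNPDL in none.

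**Figure D4:**
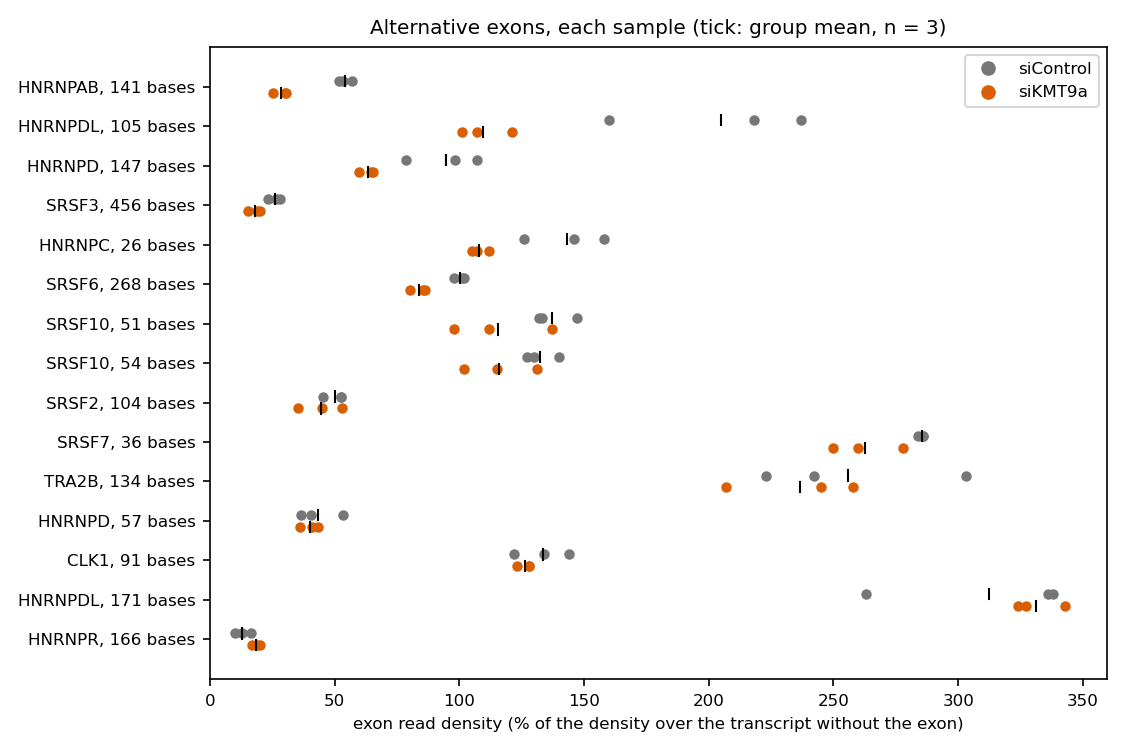
Exon read density (horizontal axis, percent of the read density of the transcript without the exon) in each sample for the 15 alternative exons, ordered by the ratio of siKMT9a to siControl; ticks are group means. The samples separate for the exons of HNRNPAB, HNRNPD (147 bases), HNRNPDL (105 bases), SRSF3, HNRNPC, SRSF6 and SRSF7 with siKMT9a lower, and for HNRNPR with siKMT9a higher.

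Of the 7 kinases 6 were tested, and SRPK2 was the only one called (16.7%, beside 24.2% of all genes). SRPK2 (NM_182691, chromosome 7, 104756823 to 104909477), a cytoplasmic kinase that phosphorylates SR proteins, measured 69.4, 66.9 and 68.4 CPM in siControl and 25.9, 24.7 and 23.3 CPM in siKMT9α. Its log2 fold change was -1.48 (SE 0.06, adjusted p = 4.06e-14), the most negative of the 42 genes. Its paralogue SRPK1 measured 95.4, 89.0 and 91.0 CPM in siControl and 93.9, 93.7 and 94.9 CPM in siKMT9α, a log2 fold change of 0.04 (SE 0.05). CLK1, which is itself regulated by splicing, measured 137.9, 133.3 and 126.5 CPM in siControl and 134.3, 146.8 and 147.1 CPM in siKMT9α, a log2 fold change of 0.11 (SE 0.05, adjusted p = 0.066). CLK4 measured 21.1, 19.5 and 20.8 CPM in siControl and 20.2, 20.4 and 22.3 CPM in siKMT9α, a log2 fold change of 0.04 (SE 0.08). CLK2 and CLK3 had log2 fold changes of 0.16 (SE 0.09) and 0.11 (SE 0.06), neither with an adjusted p below 0.05. The signs of SRPK1 and CLK4 changed under scaling by library size alone. A 91-base coding exon of CLK1 had a density of 133% ± 11.0 in siControl and 126% ± 2.89 in siKMT9α (SD, n = 3), with overlap.

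An siRNA can also act on transcripts that pair with bases 2 to 8 of its guide strand. The siRNA is listed as a single strand, which was taken here as its sense strand. The 7-mer complementary to bases 2 to 8 of the guide is then ACATTCA, and it was counted on the sense strand in the annotated 3′ UTR of each gene. It was present in 11.9% of 12226 genes and in 7 of the 41 splicing factor genes with a 3′ UTR (17.1%). SRPK2 holds 3 copies and HNRNPH2 holds 1, HNRNPH3 none. CLK4, HNRNPA3, SRSF3, SRSF7 and SRSF12 hold 1 copy each, and of these HNRNPA3 and SRSF7 were called higher. The median log2 fold change was -0.20 over all genes with the 7-mer and 0.01 over those without it, and 0.14 and 0.42 over the 7 and 34 splicing factor genes. A longer 3′ UTR has more room for a 7-mer, and this comparison took no account of 3′ UTR length. The sites in the called lower genes are shown with 7 bases on either side and the 7-mer in capitals. In GRCh37 they lie at chr7:104758001-104758021, chr7:104757237-104757257 and chr7:104756975-104756995 on the minus strand in SRPK2, which is 271, 1035 and 1297 bases after the stop codon, and at chrX:100668609-100668629 on the plus strand in HNRNPH2. Their part in the lower counts was not tested.
SRPK2 first site: ttgtgtgACATTCAaatgtca
SRPK2 middle site: agtgatcACATTCAttccata
SRPK2 last site: aaattttACATTCAttaaggt
HNRNPH2 site: cactgaaACATTCAtctagga

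Other genes of splicing and of SR protein control were counted in the same fit. Of 56 other splicing regulators tested, 23 were called higher and 6 lower (51.8%, beside 24.2% of all genes), with a median log2 fold change of 0.36. PCBP2 (1.70), a C-rich RNA binder, YBX1 (1.46) and PTBP1 (1.45), the polypyrimidine tract binding protein, were the highest. PTBP2 (-1.66), the neuronal paralogue of PTBP1, QKI (-1.35) and PCBP4 (-1.09) were the lowest. The paralogues PTBP1 and PTBP2 thus moved in opposite directions, from 91.5 to 249.2 CPM and from 55.9 to 17.6 CPM on average. Of 72 core spliceosome subunits tested, 11 were called higher and 4 lower, with a median of 0.07. Their called share of 20.8% was close to the 24.2% of all genes. SNRPA (1.31), SNRNP200 (0.80) and PRPF6 (0.77) were the highest, and SNRNP27 (-1.32) and PLRG1 (-0.53) were among the 4 called lower.

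Of 15 other kinases, phosphatases and importers of SR proteins, 3 were called higher and 3 lower (40.0%). HIPK2 (1.91), the importin TNPO2 (1.41) and PRPF4B (0.54) rose. AKT1 (-1.10), PPP1CB (-0.76), a catalytic subunit of protein phosphatase 1, and TNPO3 (-0.73), the importin that carries phosphorylated SR proteins into the nucleus, fell. Of 17 factors of nonsense-mediated decay, 4 were called higher (23.5%, beside 24.2% of all genes called in either direction) and none lower, among them RBM8A (0.84), UPF1 (0.83) and SMG6 (0.70). The largest subunit of RNA polymerase II, POLR2A, had a log2 fold change of -0.09 (adjusted p = 0.13), and GAPDH had 0.21 (adjusted p = 0.00248).

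For 30 of the 45 genes the table lists several transcripts, and reads in shared exons are counted in each. Within a gene the log2 fold changes of the transcripts tested lay within 0.05 of each other, except in SRSF10 (0.04 to 0.20 over 7 transcripts) and HNRNPU (-0.31 to 0.71 over 3 transcripts). The deviating HNRNPU transcript, NR_026778, lies at 245003940 to 245010243 on chromosome 1, outside the span of the main transcript (245013602 to 245027827) and overlapping COX20, which had a log2 fold change of -0.79. The spans of 11 of the 45 genes overlap another listed symbol, and whether the counting used strand is not given in the sources used here.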

How the data were processed

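RNA-Seq of A549 cells was compared between siControl and siKMT9α (3 samples each, labelled biological replicates). The authors aligned reads to hg19 with STAR and assigned them to RefSeq transcripts using HOMER; the deposited values are estimated counts per transcript and sample, not normalized, in steps of 0.5. The deposited table also holds the authors' fold change (a ratio) and p-value columns, which were not used. Of 38767 rows, 1182 without symbol or counts were left out. Each symbol was represented by the transcript with the largest summed count. Counts were rounded and tested with edgeR 4.0.16 (R 4.3.3; TMM, filterByExpr, two-sided quasi-likelihood F test, Benjamini-Hochberg over 13877 genes); CPM used TMM-scaled library sizes. Library kit and strand are not given in the sources used here. P-values measure the spread between these samples only. The check of replicates, a chi-square per gene, found no pair of samples alike within sampling noise. The closest pairs were siKMT9α replicates 1 and 2 (1.34) and siControl replicates 2 and 3 (1.8). Other pairs within a group had 4.02 to 5.15.

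The genes and lists were chosen with earlier results of these data known. Every gene of the selection is named; values per sample are given for those past the study's threshold and, per class, for the one with the highest level per kb and the one with the smallest change. Of each other list, up to 3 highest and 3 lowest called genes are named, except 1 that is not reported here. The analyses of exons and of the 7-mer, and the per-sample values of SRSF12, TRA2A, HNRNPH1, HNRNPLL and other uncalled genes, were added after the data were seen. Alternative exons came from pairs of deposited transcripts differing by 20 to 1000 bases, matched by length (2 bases more than the deposited difference) to 1 GENCODE exon on GRCh37 that another transcript skips. The 3′ UTR was that of the annotated transcript nearest in length. DESeq2 1.42.0 was an alternative. The scripts were tested on simulated data.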

Additional observations from a re-analysis of the deposited data

How the results depend on the processing

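Under 17 alternative settings between 13 and 24 of the 42 genes were called, and 13 of the 17 genes called kept the call under each of them, while SRSF6, SRSF7, SRSF11 and HNRNPUL1 lost it under at least 1, in each case also with library size alone and with the replicate block. Leaving out 1 sample gave 13 to 21 calls. The median log2 fold change moved to 0.294 with library size alone. Signs changed for CLK4 (-0.067 with library size alone, -0.013 to 0.079 with 1 sample left out), HNRNPF (-0.06 with library size alone), SRPK1 (-0.069 with library size alone), SRSF8 (-0.077 with library size alone, -0.014 to 0.066 with 1 sample left out) and, with GC and length offsets, SRPK1 (-0.093), SRSF1 (-0.064) and SRSF8 (-0.123); with these offsets and the replicate block the values were -0.092, -0.065 and -0.122. The offsets and the exon settings were added after seeing the data. None of these 5 genes had been called. The size of other changes also moved with GC and length offsets. It was smaller for HNRNPU (0.45) and HNRNPA3 (0.457), which kept the call, and for HNRNPUL2 (0.162). It was larger for HNRNPAB (0.558) and CLK2 (0.301), and the median of the 42 genes was 0.453. The cause was not tested.

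Of all genes, 1878 were called higher and 1479 lower; the likelihood-ratio test gave 3086 and 2876, no filter 3184 and 2886, the GC and length offsets with the replicate block 2856 and 2606, the replicate block 1368 and 974, and leaving out siKMT9α replicate 2 1400 and 926. Replicate numbers did not pair the samples (correlations of deviations -0.16, 0.058 and -0.127); with the replicate block 13 of the 42 genes were called and 31 had an adjusted p below 0.05. At least 50 mean reads left 11 exons, 7 lower and 0 higher, the HNRNPR exon being below that minimum; leaving out 1 sample gave 7 to 9 lower exons. The self-overlap of transcripts limits what can be said of single isoforms, and low counts limit SRSF12, HNRNPCL1 and HNRNPCL3.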
